A study of Homo sapiens with 2 samples.

Results

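The genes described here encode enzymes of the methionine cycle, of transsulfuration and of the mitochondrial folate steps that feed them. They are CBS, its near-identical copy CBSL, CTH, AHCY, MAT2A, MTR, BHMT, SHMT2 and MTHFD2. They were chosen by name, by matching Ensembl identifiers to gene symbols, and all 9 were found among the 58302 genes of the count table. The choice was made knowing earlier ratios from these same libraries, in which CBS stood low, so every value below is a description and none is a test.

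RNA was sequenced from HK-2, an established human line of kidney proximal tubule cells, grown in medium with serum. Both cultures were exposed for 24 h to an adenoviral vector, which delivers its insert without joining it to the genome. The control vector, labelled Ad-GFP, carried green fluorescent protein, and the other, labelled Ad-Bmal1, carried the coding domain of the clock transcription factor Bmal1. The promoter that drives either insert is not given in the sources used here. There was 1 library per group, with 20032652 counts for Ad-GFP and 20051735 for Ad-Bmal1, so intervals below are 95% counting intervals that leave out variation between cultures. BMAL1 itself had 204 counts under the Ad-GFP label and 133 under the Ad-Bmal1 label, a ratio of 0.667 (0.532 to 0.834). The targeted gene thus went against the label, and each direction below is that of the library labels only. Of 15 proximal tubule markers 5 reached 1 CPM (counts scaled to library size), among them PAX8 and GGT1, while LRP2, SLC5A1, SLC22A6 and SLC22A8 were at 0 in both libraries.

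The methionine cycle makes S-adenosylmethionine (SAM), the methyl donor of the cell, from methionine through MAT2A. Once the methyl group is used, AHCY splits the product into adenosine and homocysteine. Homocysteine is either returned to methionine, by MTR with folate and cobalamin or by BHMT with betaine, or it is committed to cysteine by CBS and then CTH. SHMT2 and MTHFD2 take carbon units from serine into the mitochondrial folate pool. BHMT is known as an enzyme of liver and, in kidney, of the proximal tubule.

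CBS and CBSL are shown as sequence first, because the result for the first enzyme of transsulfuration turns on how alike they are. CBS lies on the long arm of chromosome 21 (43053191 to 43076943, minus strand, GRCh38) and CBSL on the short arm (6444869 to 6468040, minus strand). As background, the short-arm segment is known as a duplication in the GRCh38 assembly rather than a second gene of the cell. Coding transcripts were compared only where a CBS and a CBSL transcript had the same length. Among these, CBS-202 and CBSL-203 of GENCODE v29 are both 2353 bases long and differ at 1 base, C921T. The position is counted from 1 at the 5′ end of the transcript, with the base of CBS first. The stretch around that base, in capitals, is printed for each.
CBS: cctggctcactaCgacaccaccgct
CBSL: cctggctcactaTgacaccaccgct

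Promoter windows of the copies were compared only where their last 30 bases were the same, and the pair so chosen was as close. Among the RefSeq windows of 300 bases around a gene start (GRCh38.p14), 8 of the 9 genes had a match, all but SHMT2. CBSL was matched under the synonym its unnamed copy carries. The CBS window chr21:43075786-43076085 and the CBSL window chr21:6467464-6467763 share 299 bases. The 1 difference, G134C counted from the window's 5′ end with the base of CBS first, lies 117 bases before the start and is in capitals within the 61 bases shown.
CBS: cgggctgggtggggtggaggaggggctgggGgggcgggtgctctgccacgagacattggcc
CBSL: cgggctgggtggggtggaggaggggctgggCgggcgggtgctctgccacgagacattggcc

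The motif CACGTG, the E-box that BMAL1 and CLOCK are known to bind, was searched on both strands of these windows. It is in 7.26% of all 35116 windows, and 8.77% of genes have it in any window. It was found once among the genes described here, in the CBSL window chr21:6467148-6467447, 51 bases before that start, where it is in capitals: gggctggccgtgCACGTGgccccgggctcc. The windows of CTH, MTR, MTHFD2, MAT2A, BHMT, AHCY and CBS held no such letters. CBSL had 4 windows and CBS 3. No listed CBS window ended in the same 30 bases as that CBSL window, so the copies were not compared there. The motif TGATGNAA, part of the amino acid response element that ATF4 is known to bind, was in 3.62% of all windows and 4.46% of genes. Of the genes described here it was likewise in that CBSL window alone.

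Of the 9 genes 8 were measured, meaning at least 1 CPM in at least 1 library, and BHMT was not. By a size rule of at least 2-fold with an interval that excludes 1, CBS was lower in the library labelled Ad-Bmal1 and none was higher, where 1.74% of all 13231 measured genes were lower and 1.13% higher. By the interval alone 3 members lay below 1 (CBS, MAT2A and AHCY) and 3 above (CTH, CBSL and MTR), beside 21.6% and 23.8% of all measured genes. The median log2 ratio of the 8 was 0.02, against 0.00 over all measured genes. With CBS and CBSL summed as 1 gene, the size rule named no member, and the median over 7 was 0.01.

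**Figure D1:**
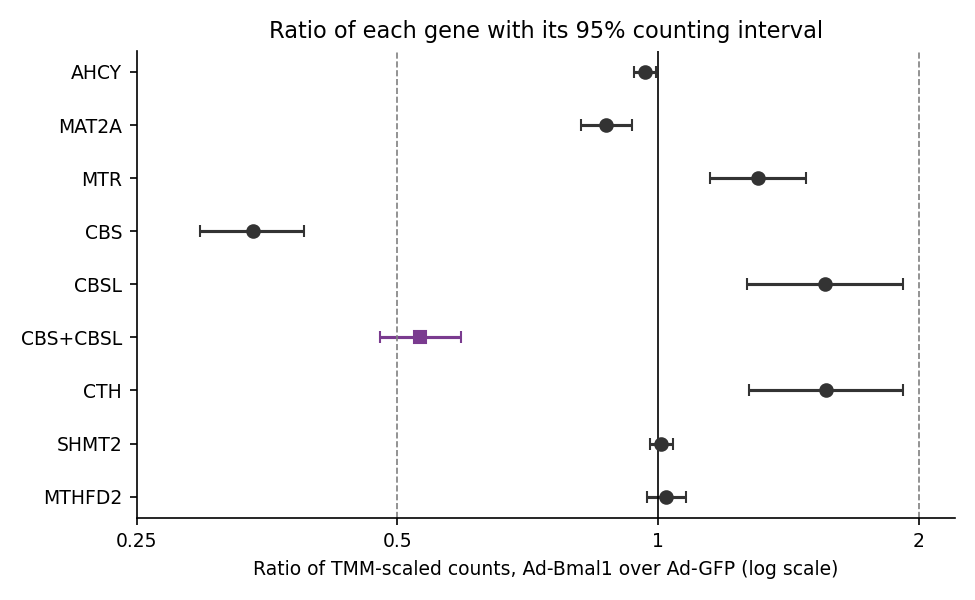
Ratio of TMM-scaled counts, Ad-Bmal1 divided by Ad-GFP by library label, on a log axis, for the 8 measured genes and for CBS and CBSL summed (square). Bars are 95% counting intervals and dashed lines mark 2-fold. CBS at 0.340 is the point wholly beyond 2-fold, and the sum lies at 0.532.

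Levels can be compared between genes only per length, here as CPM per kb of the longest annotated coding transcript. In the library labelled Ad-GFP the order was AHCY at 196, SHMT2 at 168, MAT2A at 32.5, MTHFD2 at 31.6, CBS at 15.9, CTH at 3.81, CBSL at 3.02, MTR at 2.02 and BHMT at 0. In the library labelled Ad-Bmal1 AHCY stood at 189, SHMT2 at 169, MTHFD2 at 32.2, MAT2A at 28.3, CTH at 5.95, CBS at 5.42, CBSL at 4.71, MTR at 2.63 and BHMT at 0.121. The genes thus spanned a wide range, and CBS by its own counts moved from well above CTH to beside it. With CBSL added, and over the length of CBS, the level was 18.9 (17.8 to 20.1) and 10.1 (9.21 to 11.0), above CTH in both libraries. Neighbours whose counting intervals overlapped were MAT2A and MTHFD2, and CTH and CBSL, in the library labelled Ad-GFP. In the other library these were CTH and CBS, and CBS and CBSL.

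**Figure D2:**
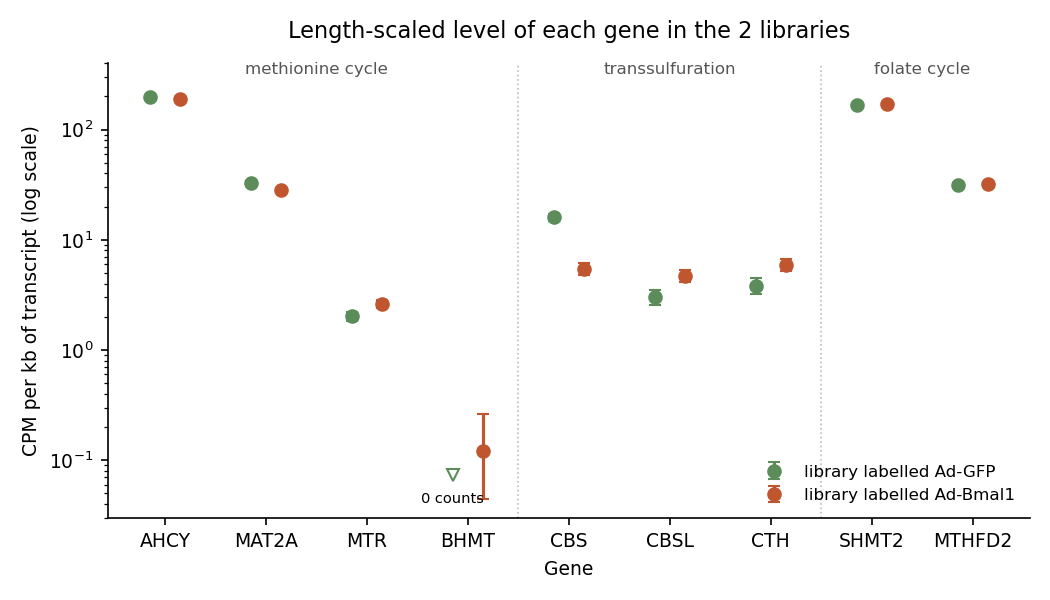
Length-scaled level (CPM per kb of transcript, log axis) of the 9 genes in each library, with exact Poisson 95% intervals. AHCY at 196 and 189 and SHMT2 at 168 and 169 hold their places, while CBS goes from 15.9 to 5.42, and the open triangle is the upper limit for BHMT at 0 counts.

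MAT2A, which makes SAM outside the liver, was slightly lower in the library labelled Ad-Bmal1. The count was 1859 under Ad-GFP and 1583 under Ad-Bmal1, a ratio of 0.871 (0.814 to 0.932; ENSG00000168906, chromosome 2, 85539165 to 85545280). Its annotated exons share 558 bases with GGCX on the opposite strand, which had 1417 and 1645 counts. Reads from that overlap cannot be told apart, since the strand setting of the counting is not given in the sources used here. The regulatory subunit gene MAT2B, at 650 and 473 counts, had a ratio of 0.745 (0.660 to 0.840). The liver enzyme gene MAT1A had 1 and 2 counts.

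AHCY, the most abundant of the 9 per length, differed little between the libraries. From 9413 and 8875 counts its ratio was 0.965 (0.937 to 0.993; ENSG00000101444, chromosome 20, 34280268 to 34311802). With a trend on transcript length removed the ratio was 1.01, on the other side of 1. The 6 annotated pseudogenes named after AHCY had 0 counts in both libraries. AHCYL1, a relative of AHCY known to bind the inositol trisphosphate receptor, had 3025 and 2945 counts (0.996, 0.947 to 1.05), and ADK, which removes the adenosine that AHCY releases, 1043 and 917 (0.900, 0.822 to 0.984).

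MTR, methionine synthase, was higher in the library labelled Ad-Bmal1. From 431 and 549 counts its ratio was 1.30 (1.15 to 1.48; ENSG00000116984, chromosome 1, 236795281 to 236903981). Its longest coding transcript is 10529 bases, and with the length trend removed the ratio was 1.14. MTRR, which reactivates MTR, had 439 and 406 counts, with an interval that included 1 (0.946, 0.825 to 1.09). MMACHC and MMADHC, which process the cobalamin that MTR needs, lay on opposite sides of 1, with ratios of 1.39 (1.12 to 1.73) and 0.834 (0.780 to 0.890).

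BHMT, the betaine-dependent enzyme, was at trace level. Its count was 0 under Ad-GFP and 6 under Ad-Bmal1 (ENSG00000145692, chromosome 5, 79111779 to 79132290). The exact interval for the ratio starts at 1.20 and has no upper limit. BHMT2, its neighbour and close paralog, had 1 count in each library. Markers of hepatocytes were mixed: 7 of the 10 listed had more counts in the library labelled Ad-Bmal1, 2 had fewer and 1 was equal. Those with fewer were SERPINA1 at 5999 and 5011 counts and CPS1 at 218 and 188, and FGB had 21 in each. Of the 4 markers measured, 1 had an interval above 1 and 1 below. Of the 10, 5 were at 0 in the library labelled Ad-GFP and none in both, with APOA1 at 0 and 15 counts, TTR at 0 and 9 and ALB at 9 and 165. Their summed level was nevertheless 308 and 274 CPM, most of it from SERPINA1, and the part of these transcripts in the BHMT result was not tested.

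CBS, which condenses homocysteine with serine, was the member with the lowest ratio. Its count was 842 under Ad-GFP and 280 under Ad-Bmal1 (ENSG00000160200), 2.94-fold lower (2.56 to 3.38). In such bulk RNA, fewer cells that express a gene and less RNA per cell cannot be told apart. It ranked 50 from the lowest ratio among the 13231 measured genes. Among the 3941 other measured genes with a summed count within a factor of 2 of its own, none had a lower ratio. For CBSL the order was the reverse, 157 under Ad-GFP against 239 (ENSG00000274276), a ratio of 1.56 (1.27 to 1.92).

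The split of reads between the copies therefore differed between the libraries. CBS held 84.3% of the counts of the pair in the library labelled Ad-GFP (exact binomial interval 81.9 to 86.5) and 53.9% in the other (49.6 to 58.3). The sum of the pair was 999 and 519 counts, or 0.532 as a ratio (0.477 to 0.592). That is 1.88-fold lower (1.69 to 2.10), an interval that spans 2-fold. Of 3884 other measured genes of like depth, 13 had a lower ratio than the sum.

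Reads can be assigned to CBS or CBSL only where their sequences differ. Of the 7412 different windows of 150 bases, the read length, in CBS transcripts, 46.9% also occurred in CBSL transcripts, and 77.7% of the 4471 windows of CBSL occurred in CBS. These windows were pooled over all annotated transcripts of each gene, so unshared ones may come from transcripts annotated for that gene alone. They thus do not measure how many reads can be told apart. The matched transcripts CBS-202 and CBSL-203 differ at 1 base of 2353. The values of either copy by itself are uncertain, since how reads that fit both places were counted is not given in the sources used here. The sum is the same however such reads were divided between the copies, but if they were left out it lacks them, and its ratio without that loss was not tested.

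Other gene pairs with a copy on the short arm of chromosome 21 were counted in the same libraries. U2AF1, a splicing factor gene, held 11.2% of its pair with U2AF1L5 in the library labelled Ad-GFP (8.95 to 13.8) and 8.99% in the other (7.18 to 11.1). SIK1, a salt-inducible kinase gene, held 25.7% of its pair with SIK1B (23.1 to 28.5) and 36.6% (34.1 to 39.2). The share of the long-arm gene was thus lower in the library labelled Ad-Bmal1 for CBS, higher for SIK1 and within overlapping intervals for U2AF1. The summed counts of these pairs were higher in that library, at 677 and 879 for the U2AF1 pair (ratio 1.33, 1.20 to 1.47) and 1014 and 1377 for the SIK1 pair (1.39, 1.28 to 1.51), where the CBS pair was lower. CRYAA and CRYAA2 together had 1 count in each library, and KCNE1 and KCNE1B had none.

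**Figure D3:**
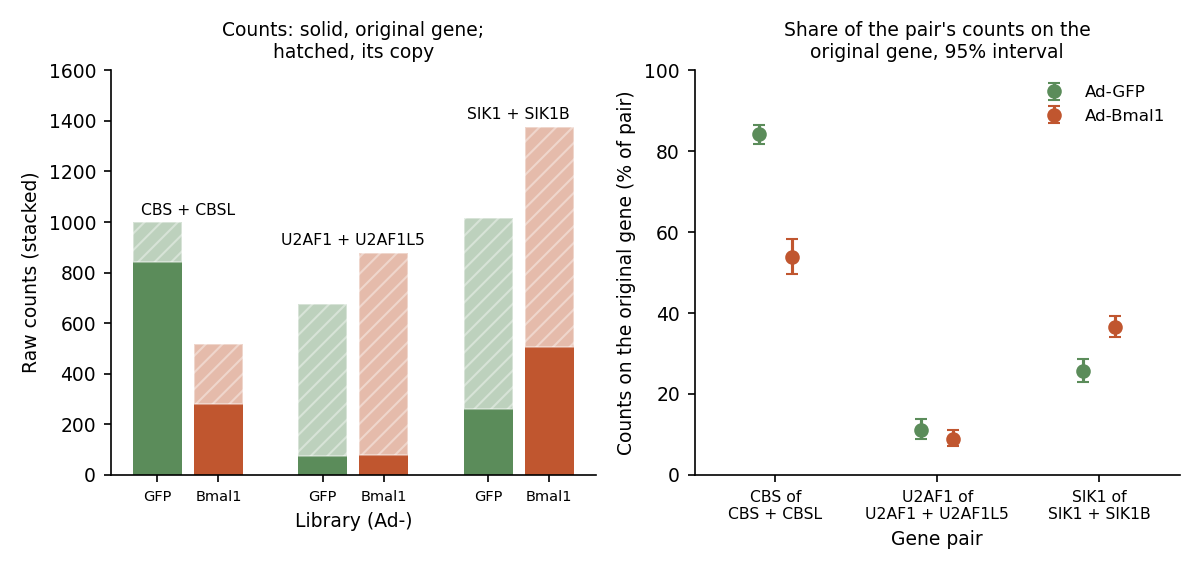
Left, raw counts of 3 gene pairs in each library, with the long-arm gene solid and its short-arm copy hatched. Right, the share of each pair's counts on the long-arm gene (percent) with exact binomial 95% intervals; the CBS share goes from 84.3% to 53.9% and the SIK1 share from 25.7% to 36.6%.

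CTH, which cleaves cystathionine to cysteine after CBS, was higher in the library labelled Ad-Bmal1. From 158 and 241 counts its ratio was 1.56 (1.27 to 1.92; ENSG00000116761, chromosome 1, 70411218 to 70439851). CTH thus went the other way from CBS and from the sum of CBS and CBSL, while CBSL by itself went the same way as CTH. For each CTH count there were 6.32 counts of CBS and CBSL in the library labelled Ad-GFP (5.34 to 7.53) and 2.15 in the other (1.84 to 2.52), a comparison that needs no library scaling. For each MTR count, the competing use of homocysteine, there were 2.32 (2.07 to 2.60) and 0.945 (0.837 to 1.07). For each AHCY count, the source of homocysteine, there were 0.106 (0.0993 to 0.113) and 0.0585 (0.0534 to 0.0639).

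Further along cysteine use, the list of transsulfuration and cysteine genes had 12 of 13 measured, with 5 intervals above 1 and 5 below. Over all measured genes the shares were 23.8% and 21.6%. CBSL is among those above and CBS among those below. Without the members, 9 were measured, with 3 intervals above 1 and 4 below. The size rule was met by CBS and by CSAD, which makes hypotaurine, with 42 and 20 counts (0.487, 0.271 to 0.849). Both were lower, as were 1.74% of all measured genes. The sum of CBS and CBSL, at 0.532, did not meet the rule. Of the genes that oxidise sulfide and its products, SQOR was lower at 987 and 704 counts (0.730, 0.662 to 0.805), as was ETHE1 at 325 and 235 (0.740, 0.623 to 0.878). SUOX, which oxidises sulfite, was level at 300 and 292 counts (0.996, 0.845 to 1.17). MPST, which makes sulfide from mercaptopyruvate, was at 0.882 (0.836 to 0.930), and TST, a sulfur transferase, at 1.18 (1.06 to 1.33). Of the glutathione synthesis genes, GCLM was at 1.20 (1.06 to 1.36), GSS at 1.07 (1.01 to 1.12) and GCLC at 1.14 (0.962 to 1.35).

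SHMT2, which moves a carbon unit from serine to folate in mitochondria, had nearly the same level in both libraries. From 8638 and 8513 counts its ratio was 1.01 (0.979 to 1.04; ENSG00000182199, chromosome 12, 57229327 to 57234935). MTHFD2, the next mitochondrial enzyme, was at 2851 and 2847 counts and a ratio of 1.02 (0.970 to 1.08; ENSG00000065911, chromosome 2, 74198562 to 74217565). The 7 annotated pseudogenes named after MTHFD2 held 0 and 2 counts in all.

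Over the folate list 17 of 20 genes were measured and none met the size rule. Here 1 interval lay above 1 and 5 below, beside 23.8% and 21.6% of all measured genes. MTHFD1, the cytosolic relative of MTHFD2, was the one above, with 3919 and 4554 counts (1.19, 1.14 to 1.24). Over the alternative scalings, thinning and prior count its lowest ratio was 1.08, below that interval. Those below 1 included GCSH of the glycine cleavage system (0.602, 0.451 to 0.799), the folate hydrolase GGH (0.793, 0.734 to 0.856), FPGS (0.863, 0.817 to 0.912) and MTHFD1L (0.934, 0.873 to 0.999). SLC19A1, the reduced folate carrier, had 1026 and 1354 counts (1.35, 1.24 to 1.47). The serine synthesis genes that supply SHMT2 had ratios of 1.08 (1.03 to 1.12) for PHGDH, 1.08 (0.999 to 1.17) for PSAT1 and 1.27 (1.17 to 1.37) for PSPH.

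Beside the members, the list of methionine salvage and polyamine genes had the lowest median, -0.30 on the log2 scale over 13 measured genes. None of these met the size rule. Of their intervals 8 lay below 1 and 2 above, beside 21.6% and 23.8% of all measured genes. Deep counts narrow an interval, so that it can exclude 1 at a small difference. SMS, spermine synthase, had 10389 and 7296 counts (0.719, 0.697 to 0.740), and SAT1, which acetylates polyamines for export, 3761 and 2644 (0.719, 0.684 to 0.756). AMD1, which draws SAM into this pathway, went the other way with 486 and 650 counts (1.37, 1.21 to 1.54). Among methyltransferases of small molecules NNMT, which spends SAM on nicotinamide, had 2181 and 2810 counts (1.32, 1.25 to 1.39). METTL16, known to tune MAT2A splicing to SAM, had 696 and 712 counts (1.05, 0.942 to 1.16).

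ATF4, a transcription factor known to drive MTHFD2, SHMT2 and serine synthesis genes under amino acid stress, was at 11717 and 11014 counts, with a ratio of 0.962 (0.937 to 0.987), or 1.02 with the length trend removed. Over ATF4 and its targets 12 of 13 genes were measured, with 7 intervals above 1, 4 below and a median of 0.21. The shares over all measured genes were 23.8% above and 21.6% below. The cystine transporter gene SLC7A11 met the size rule with 27 and 62 counts (2.35, 1.47 to 3.84). Over the alternative scalings, thinning and prior count its lowest ratio was 2.06. SESN2, a stress-induced regulator of mTORC1, was at 1.57 (1.47 to 1.67) and DDIT4, which restrains mTORC1, at 0.681 (0.653 to 0.709), so the list did not lie to one side.

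**Figure D4:**
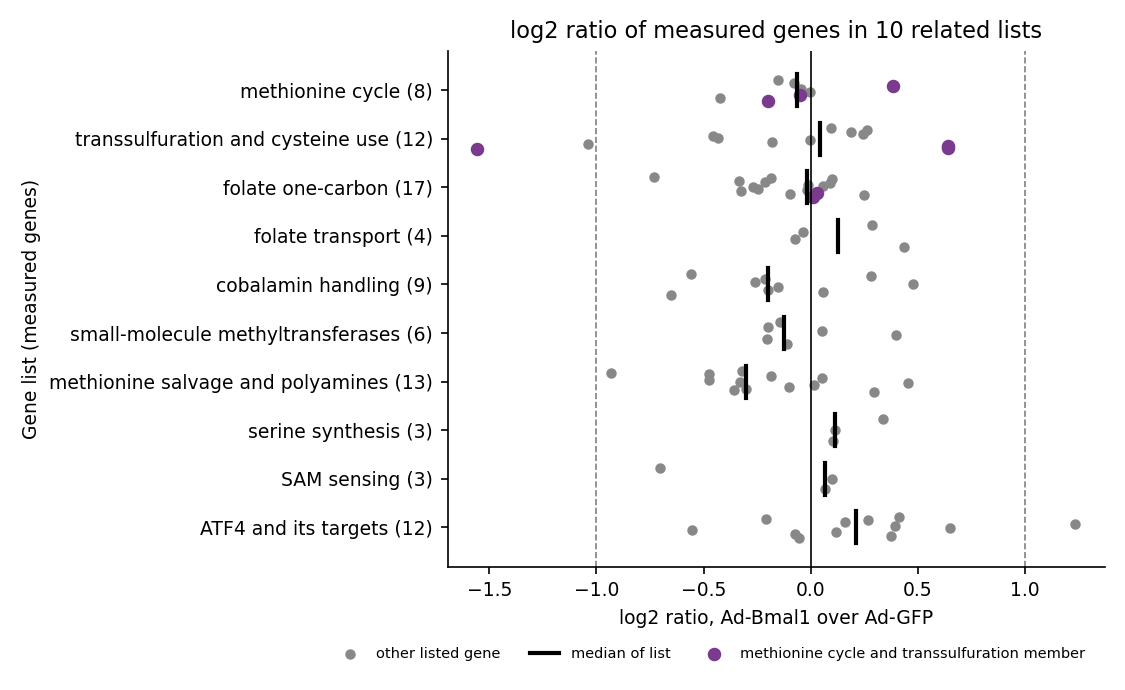
log2 ratio of every measured gene in 10 related lists, with the number measured in brackets; large points are the genes described here, grey points other listed genes and black bars the list medians. Dashed lines mark 2-fold, beyond which lie CBS at -1.56, CSAD at -1.04 and SLC7A11 at 1.23.

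Among enzymes of sulfur and folate metabolism known to be enriched in liver, most were at trace level in both libraries. Of 10 listed, 3 were measured, CBS, CTH and PEMT, and ALDH1L1 had no count. GNMT, the SAM-buffering methyltransferase, had 5 and 4 counts, FTCD 5 and 5, and CDO1, which oxidises cysteine, 0 and 1. PEMT, which makes phosphatidylcholine, had 410 and 348 counts (0.868, 0.751 to 1.00).

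**Figure D5:**
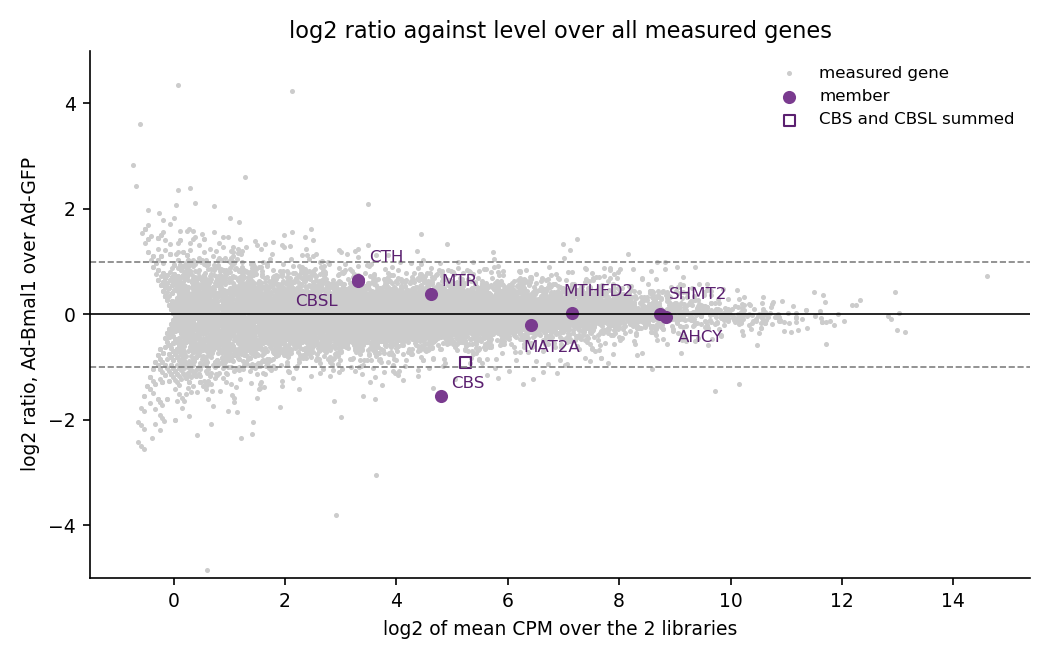
log2 ratio against log2 mean CPM for all 13231 measured genes (grey), the 8 measured members (filled) and CBS and CBSL summed (open square); dashed lines mark 2-fold. CBS at -1.56 lies below the cloud at its level, the sum at -0.91 at its lower edge, and the other members within it.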

How the data were processed

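The deposited files hold raw counts per gene: whole numbers with no sign of normalisation by the authors. Alignment was to GRCh38 (hg38) with HISAT2, per the submitters' processing notes. How reads were then counted (tool, strand, annotation) is not given in the sources used here. Symbols came from the gene name table and, where that gives none, from GENCODE v29, which held 99.5% of the 58302 identifiers. Unused columns of per-sample values numbered 0.

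Counts were scaled with TMM (edgeR 4.0.16, R 4.3.3). A ratio is Ad-Bmal1 divided by Ad-GFP, by library label, with an exact conditional binomial 95% interval. Such intervals, and the floor of 3 counts, cover counting error alone, and reads carry no molecular identifiers. With 1 library per group no edgeR test can be fitted, so no p-value is given. Steps were tested on simulated data. Other tools were Python 3.11.15, numpy 2.4.6, pandas 2.3.3, scipy 1.17.1 and matplotlib 3.10.9.

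The members and lists were chosen with earlier results of these data known. The rule named the 9 members, BMAL1, the chromosome 21 copies and up to 4 genes per list by the size rule, or else the 2 most abundant. Other genes were named after their values were seen. The values of some listed genes are not reported here. Alternative scalings used library totals, size factors from DESeq2 1.42.0, the upper quartile, totals lacking mitochondrial genes and the top 20 genes, and a running median over 501 genes that removed the length trend. Other alternatives were filters, fold sizes, a prior count of 2, thinning and summed copies.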

Additional observations from a re-analysis of the deposited data

How the results depend on the processing

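Of 816 alternative values computed, 783 stayed within their counting interval or within 1.5 times a count, and 33 moved beyond it. Over scalings, thinning and the prior count, CBS ranged from 0.332 to 0.347, the sum of CBS and CBSL from 0.519 to 0.542, CTH from 1.52 to 1.62 and MAT2A from 0.851 to 0.886. Summing the copies put CBS and CBSL both at 0.532. With the length trend removed AHCY was 1.01, MTR 1.14 and SHMT2 1.05; the cause was not tested. MTHFD2, at 1.02, was 0.998 under total counts, on the other side of 1, and SHMT2 then 0.985. Members lower by the size rule numbered 1, and 0 at 4-fold or with the copies summed. Members higher numbered 0, but 1 (BHMT, its 0 set to the floor of 3) with no filter and 2 (CTH and CBSL) at 1.5-fold. Over all genes, 230 lower became 382 with no filter, 38 at 10 CPM, 648 at 1.5-fold, 20 at 4-fold and 28 with intervals wholly beyond 2-fold. The 149 higher became 292, 21, 583, 12 and 23. Of 12 list medians 3 took both signs, those of transsulfuration and cysteine use (-0.01 to 0.09), SAM sensing (-0.00 to 0.08) and the liver-enriched list, which was -0.20 and, with no filter, 0.033. The folate transport median of 0.13 was 0.29 at 10 CPM. CSAD was 0.512 with a prior count of 2, short of 2-fold. No paired analysis was possible because there was 1 library per group. Depth limits BHMT and the liver-enriched genes at trace counts.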
